A study of Mus musculus with 9 samples.

Results

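Metallothioneins are small cysteine-rich proteins that bind zinc and copper, and the genes described here are the 3 metallothionein genes listed in the table, Mt1, Mt2 and Mt3, together with Mtf1, which encodes the zinc-sensing transcription factor MTF-1. They were chosen by name, and all 4 members were found among the 15228 genes listed. The levels come from RNA sequencing of cells sorted as retinal ganglion cells (RGCs) from wild-type mice, with 3 libraries in each of 3 groups. Ctrl cells came from normal retinas without injury, ONC cells from retinas 3 d after optic nerve crush with an injection of PBS into the eye, and TPEN cells from retinas 3 d after crush that received TPEN, a membrane-permeable chelator of zinc, right after the injury. The labels give the genotype as WT and no strain, and the study used C57BL/6J mice beside a conditional knockout line with its littermates. No group received TPEN without crush, and the labels do not say whether separate mice gave the libraries of a group, so p-values measure the spread between these libraries, which may be technical. No injection is named for the Ctrl retinas, so comparisons of ONC or TPEN with Ctrl hold crush and injection together. The share of each was not tested. The question addressed was how the metallothionein genes and Mtf1 differed from Ctrl after crush with injection. It also covered how far their levels with the zinc chelator lay back toward Ctrl.

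The libraries held 19946993 to 23109754 reads, worked out from the deposited RPKM values (reads per kilobase of exon, scaled to the size of the library). The gate kept CD90.2-positive cells that lacked CD48, CD15 and CD57. The study also examined sorted cells by immunofluorescence for the RGC marker protein RBPMS, which RNA levels do not measure. The RNA levels of RGC marker genes were mixed. Of 15 such genes chosen, 13 were listed, and Pou4f2 and Pou4f3 were not. Neurofilament genes and Sncg were high, with Nefl at 258, Nefm at 49.5, Nefh at 31.1 and Sncg at 19.9 RPKM in Ctrl on average. Lowest of the listed RGC markers in Ctrl were Rbpms at 0.605 ± 0.0992 RPKM, Pou4f1 at 0.571 ± 0.146 RPKM and Slc17a6 at 0.268 ± 0.0728 RPKM (mean ± SD, n = 3 libraries). The other listed markers lay between, with Gap43 at 7.79, Thy1 at 4.74, Tubb3 at 4.19, Isl1 at 2.09, Ebf3 at 0.959 and Stmn2 at 0.686 RPKM. Gnat1, of rod transducin, was at 11522 ± 471 RPKM. The name RGC thus refers to the gate, not to a pure cell type. In these bulk samples, fewer cells of a type and less RNA per cell cannot be told apart.

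Metallothioneins hold zinc in clusters of cysteine thiolates and release it on oxidation, which makes them a buffer of free zinc in the cell. When free zinc rises, MTF-1 enters the nucleus, binds metal response elements (MREs) in promoters and switches on Mt1 and Mt2, and the same genes also respond to glucocorticoids, to cytokines that signal through gp130 and STAT3, and to oxidative stress. In the central nervous system Mt1 and Mt2 are known mainly from astrocytes and, in the retina, Müller glia, whereas Mt3 is the isoform first described in neurons.

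The coding sequences are shown because the 3 metallothionein genes differ so little that reads could in principle be shared between them. They were taken from the GENCODE M21 transcripts of the mouse genome build GRCm38 and run from the start codon to the stop codon, 5′ to 3′, with the cysteine codons (TGC or TGT) in capitals.
Mt1: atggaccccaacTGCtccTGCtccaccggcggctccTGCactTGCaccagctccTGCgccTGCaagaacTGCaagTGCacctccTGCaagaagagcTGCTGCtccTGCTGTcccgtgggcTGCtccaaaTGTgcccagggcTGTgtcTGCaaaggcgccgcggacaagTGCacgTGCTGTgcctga
Mt2: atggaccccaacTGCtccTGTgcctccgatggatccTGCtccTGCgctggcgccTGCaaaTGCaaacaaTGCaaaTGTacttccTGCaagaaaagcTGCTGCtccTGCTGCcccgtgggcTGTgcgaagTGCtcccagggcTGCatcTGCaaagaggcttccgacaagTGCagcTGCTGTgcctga
Mt3: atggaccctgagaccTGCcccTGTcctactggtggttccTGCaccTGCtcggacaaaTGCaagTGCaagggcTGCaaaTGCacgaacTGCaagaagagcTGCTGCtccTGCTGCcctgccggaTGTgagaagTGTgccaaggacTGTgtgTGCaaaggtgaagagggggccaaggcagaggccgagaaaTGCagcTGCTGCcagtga
Each of the 3 sequences held 20 cysteine codons, which were 32.8% of the 61 codons of Mt1 and of Mt2 and 29.4% of the 68 codons of Mt3. Mt1 and Mt2 were identical at 79.6% of 186 aligned bases, Mt1 and Mt3 at 73.7% and Mt2 and Mt3 at 75.3%, the last 2 with 21 bases of Mt3 left unpaired. The longest run shared by Mt1 and Mt2 was 20 bases and that shared by Mt1 and Mt3 was 27 bases. Over their whole exons, no stretch of 50 bases was shared between any of the 3 genes, so a read of that length without errors has a single metallothionein gene as its origin.

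The promoters of the inducible pair are shown for the MRE core, the sequence that MTF-1 binds. They are the 250 bases before the RefSeq start of each gene on the plus strand of chromosome 8 (GRCm38.p6), with matches to TGCACNC or TGCGCNC on either strand in capitals. The Mt1 window is chr8:94178839-94179088 and the Mt2 window is chr8:94172368-94172617.
Mt1: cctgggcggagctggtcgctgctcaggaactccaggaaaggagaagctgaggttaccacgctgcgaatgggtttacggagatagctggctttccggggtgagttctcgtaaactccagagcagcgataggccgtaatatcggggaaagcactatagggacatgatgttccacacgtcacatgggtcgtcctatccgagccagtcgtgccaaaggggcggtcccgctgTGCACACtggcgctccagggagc
Mt2: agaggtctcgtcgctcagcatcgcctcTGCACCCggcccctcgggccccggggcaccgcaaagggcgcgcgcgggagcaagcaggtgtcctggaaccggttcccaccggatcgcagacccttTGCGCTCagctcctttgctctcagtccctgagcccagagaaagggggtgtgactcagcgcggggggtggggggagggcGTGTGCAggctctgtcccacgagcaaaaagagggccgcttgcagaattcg
The Mt1 window held 1 match and the Mt2 window 3, of which the last, read on the minus strand, appears as its reverse complement. No match was found in the windows of Mt3 and Mtf1. Of all 32851 promoter windows of this length, 21.4% held at least 1 match and 1.26% at least 3. With the 50 bases after the start added, Mt1 had 3 matches, Mt2 had 4, Mt3 had 1 and Mtf1 had 0, where 25.7% of all windows had at least 1, 1.97% at least 3 and 0.517% at least 4. A match describes the letters only and does not mark a site that MTF-1 used in these cells.

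In ONC/Ctrl, Mt2 and Mt1 passed limma's test (adjusted p under 0.05) as increases of at least 1.5-fold, and Mtf1 did not pass. Mt3 had an adjusted p just under 0.05, but it entered the test only through the groups where it was high and is not counted here. Among all 13566 genes tested, 11.7% were higher at that adjusted p and 4.58% were also past the fold change. For Mt1 and Mt2 every ONC library was above every Ctrl library, a lack of overlap that 20.7% of all genes tested showed in this direction. In TPEN/ONC, Mt2 alone passed the test, as a decrease of less than 1.5-fold, against 4.14% of all genes that were lower there at an adjusted p under 0.05. In TPEN/Ctrl, Mt1 and Mt2 were still higher than in Ctrl, both past the test and 1.5-fold, beside 8.36% of all genes past the test and 3.45% past both limits in that direction. The TPEN libraries were all above the Ctrl libraries for Mt1 and Mt2 and for 18.1% of all genes tested. Mt2 was among the 15.6% of genes with all TPEN libraries below all ONC libraries. Because ONC/Ctrl and TPEN/ONC share the ONC libraries, and TPEN/Ctrl shares the other 6 with them, the 3 comparisons are not independent of one another.

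**Figure D1:**
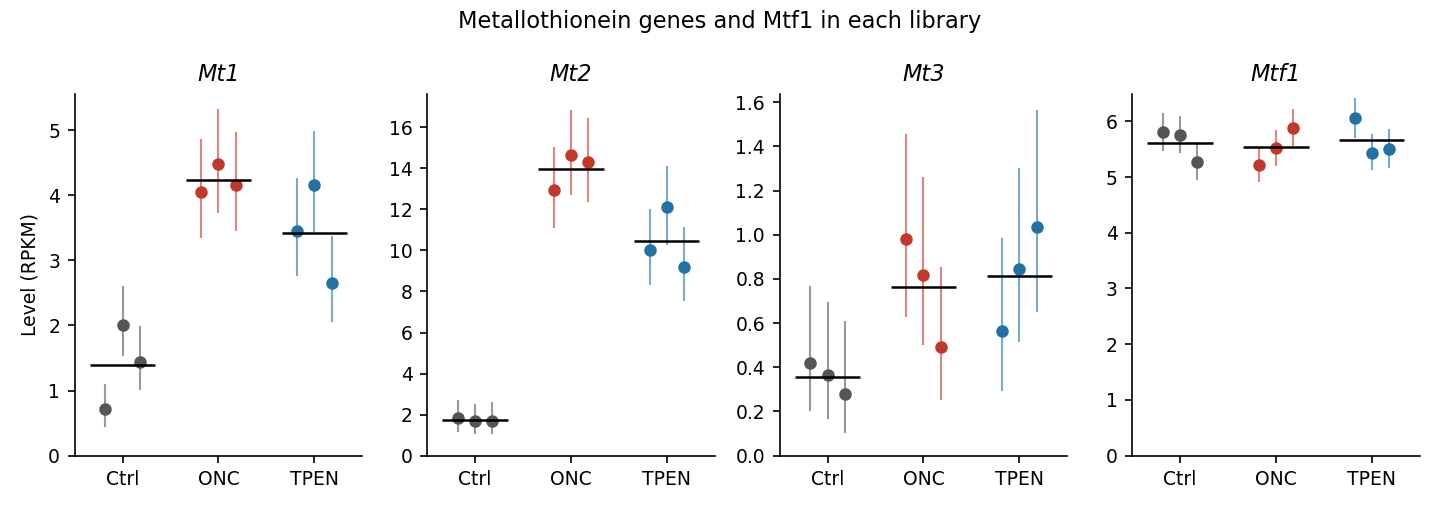
Level (RPKM) of Mt1, Mt2, Mt3 and Mtf1 in each of the 9 libraries (points, in the order of their replicate numbers), with the 95% Poisson interval of the reads as a vertical line and the group mean as a horizontal line. All ONC and TPEN libraries sit above all Ctrl libraries for Mt1, Mt2 and Mt3, only Mt2 has all TPEN libraries below all ONC libraries, and the 3 groups overlap for Mtf1. The separation of Mt3 is no support for a rise, because Mt3 was tested only through its levels in ONC and TPEN.

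Markers of other cells moved in the same comparisons as Mt1 and Mt2. Over all genes tested, 11.7% were higher and 6.97% lower in ONC/Ctrl at an adjusted p under 0.05. In TPEN/ONC, 3.24% were higher and 4.14% lower, and the counts of markers below use the same limit. Of 16 markers of microglia and macrophages, 13 were listed and 12 tested, and the 12 were higher in ONC/Ctrl, where 11.7% of all genes tested were. Aif1, C1qc, Trem2, Itgam, Cd68, P2ry12 and Tmem119 averaged 0.0668 to 0.340 RPKM in Ctrl, under the filter of 0.5 RPKM. These were tested only through their levels after crush, so their calls are no support for a rise. In TPEN/ONC, 6 of the 12 were lower and 0 higher. Of these 6, Tmem119 averaged 0.473 RPKM in TPEN, also under that filter, so its fall is no support either. The summed level of the listed markers was 4.78 to 5.67 RPKM in Ctrl, 61.8 to 64.8 RPKM in ONC and 27.7 to 28.3 RPKM in TPEN. Among them, Lyz2 rose by 4.95 on the log2 scale in ONC/Ctrl and fell by 2.09 in TPEN/ONC. Of 13 markers of Müller glia, 4 were higher and 4 lower in ONC/Ctrl, with Vim at 1.59 and Glul at -0.57. In TPEN/ONC, 1 was higher and 4 were lower. Their sum was 609 to 623 RPKM in Ctrl, 692 to 703 RPKM in ONC and 561 to 572 RPKM in TPEN. Of 6 tested astrocyte markers (7 of 8 listed), 2 were higher in ONC/Ctrl, Gfap and Aldh1l1 (1.03), and 0 lower. In TPEN/ONC, 1 was lower and 0 were higher. Their sums were 66.4 to 67.2, 87.2 to 88.6 and 77.7 to 80.0 RPKM in Ctrl, ONC and TPEN. RGC markers summed to 374 to 383 RPKM in Ctrl, 398 to 420 RPKM in ONC and 313 to 326 RPKM in TPEN. Of 10 tested, 4 were higher and 1 lower in ONC/Ctrl, and 2 higher and 4 lower in TPEN/ONC. Cone markers summed to 146 to 155, 131 to 139 and 221 to 224 RPKM in the same order. Of 8 cone markers, 1 was higher and 4 were lower in ONC/Ctrl, and 6 were higher and 0 lower in TPEN/ONC. Rod markers summed to 20071 to 20728, 17707 to 17814 and 18941 to 19004 RPKM. Of 10 rod markers, 1 was higher and 7 were lower in ONC/Ctrl, and 3 were higher and 1 lower in TPEN/ONC. No listed marker of microglia and macrophages or of glia had a mean of 0 in any group. The part of these cells in the changes of Mt1, Mt2 and Mt3 was not tested.

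Mt2 rose most. The gene lies on the plus strand of chromosome 8 (94172664 to 94173568, GRCm38) and encodes one of the 2 metallothioneins that most tissues can induce. Its level was 1.82, 1.69 and 1.69 RPKM in the Ctrl libraries (24, 23 and 20 reads), 12.9, 14.7 and 14.3 RPKM in ONC (175, 198 and 193 reads) and 10.0, 12.1 and 9.21 RPKM in TPEN (118, 158 and 108 reads). The 3 groups were fully separate, with Ctrl lowest and ONC highest, although the 95% Poisson interval of the lowest ONC library (11.1 to 15.0 RPKM) overlapped that of the highest TPEN library (10.3 to 14.1 RPKM). The means of Ctrl, ONC and TPEN were 1.74 ± 0.0736, 14.0 ± 0.902 and 10.4 ± 1.49 RPKM (SD, n = 3), which made the level 8.05 times as high in ONC as in Ctrl and 6.02 times as high in TPEN as in Ctrl. On the log2(RPKM + 0.1) scale the change in ONC/Ctrl was 2.94 (standard error, SE, 0.097, limma adjusted p = 3.8e-08), the rank of 57 among 13566 genes ordered from the highest increase. In TPEN/Ctrl it was 2.51 (SE 0.097, limma adjusted p = 2.0e-07), with the rank of 17.

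The difference of Mt2 between TPEN and ONC was small against its rise. TPEN libraries were on average 25.2% below the ONC mean and kept 71.2% ± 12.1 (SD, n = 3 TPEN libraries) of the rise from the Ctrl mean to the ONC mean. The log2 change in TPEN/ONC was -0.42 (SE 0.097, 95% confidence interval -0.64 to -0.21, limma adjusted p = 0.0289). The call rested on single libraries: without ONC replicate 1, 2 or 3 or TPEN replicate 1 or 3, the limma adjusted p was between 0.0504 and 0.103, with changes of -0.34 to -0.48 on the log2 scale. Of the 9 leave-one-out fits, 4 passed, and the sign was negative in all 9.

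The reads of Mt2 cannot be told apart from those of an antisense gene. RP23-98C9.5, named Gm45774 in GENCODE M21, lies on the minus strand over Mt2 (94170748 to 94173412) and covers 432 of the 588 exon bases of Mt2, or 73.5%. Its reads were 23, 24 and 20 in Ctrl, 173, 198 and 192 in ONC and 118, 157 and 108 in TPEN. In every library this was within 2 reads of the number for Mt2, as the plot of both read numbers shows, so the 2 genes hold almost the same reads counted for each of them. Although the kit marks the strand, the sources used here do not say that the counting used it, so the values printed for Mt2 may hold reads of either gene. RP23-98C9.5 has 2665 exon bases, of which 432 are shared, and its count was at most 1 read above that of Mt2 in any library. Which of the 2 genes gave the reads was not tested. The log2 change of RP23-98C9.5 in ONC/Ctrl was 2.71 (SE 0.12, limma adjusted p = 3.3e-07). Its change in TPEN/ONC was -0.41 (SE 0.12, limma adjusted p = 0.0736), and neither value is independent support for Mt2.

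**Figure D2:**
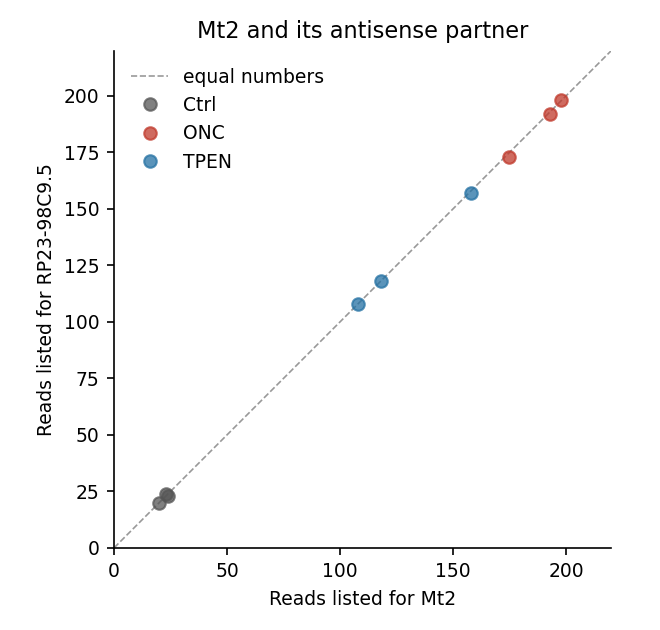
Reads listed for the antisense gene RP23-98C9.5 against reads listed for Mt2, with 1 point per library in the colour of its group and a dashed line for equal numbers. All 9 points lie on the line within 2 reads, from about 20 reads in Ctrl to 198 in ONC.

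Mt1, the other inducible gene, rose less and varied more. It lies beside Mt2 on the same strand (chromosome 8, 94179082 to 94180327) and shares no exon base with another listed gene. Its level was 0.716, 2.01 and 1.44 RPKM in the Ctrl libraries (20, 58 and 36 reads), 4.05, 4.47 and 4.16 RPKM in ONC (116, 128 and 119 reads) and 3.45, 4.15 and 2.66 RPKM in TPEN (86, 115 and 66 reads). ONC and TPEN overlapped each other, and both were fully above Ctrl. The Ctrl libraries differed by more than counting error, since the 95% Poisson intervals of replicate 1 (0.437 to 1.11 RPKM) and replicate 2 (1.53 to 2.60 RPKM) did not meet. The means were 1.39 ± 0.650, 4.23 ± 0.220 and 3.42 ± 0.750 RPKM in Ctrl, ONC and TPEN (SD, n = 3), a ratio of means of 3.04 for ONC to Ctrl and 2.46 for TPEN to Ctrl.

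The log2 change of Mt1 in ONC/Ctrl was 1.64 (SE 0.30, limma adjusted p = 0.00376), and it passed in all 9 leave-one-out fits, with values from 1.26 to 1.95. In TPEN/Ctrl it was 1.32 (SE 0.30, limma adjusted p = 0.0165), a call that was lost without TPEN replicate 1 (adjusted p = 0.0510) or TPEN replicate 2 (adjusted p = 0.0604). No difference between TPEN and ONC was shown for Mt1, with a log2 change of -0.32 (SE 0.30, limma adjusted p = 0.590). The 95% confidence interval of that change ran from -0.98 to 0.35, which includes the value measured for Mt2 as well as 0. TPEN libraries kept 71.6% ± 26.4 of the rise of Mt1 (SD, n = 3), beside 71.2% ± 12.1 for Mt2.

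Mt3 encodes the isoform that binds zinc in neurons, and it was the lowest of the 3 genes, with 6 to 24 reads per library. It lies upstream of Mt2 on the same strand of chromosome 8 (94152607 to 94154146). Its level was 0.418, 0.365 and 0.280 RPKM in the Ctrl libraries (10, 9 and 6 reads), 0.979, 0.817 and 0.490 RPKM in ONC (24, 20 and 12 reads) and 0.563, 0.844 and 1.03 RPKM in TPEN (12, 20 and 22 reads). The Ctrl libraries were the lowest 3, and ONC and TPEN covered nearly the same range. The means were 0.355 ± 0.0697, 0.762 ± 0.249 and 0.814 ± 0.237 RPKM in Ctrl, ONC and TPEN (SD, n = 3). Its Ctrl mean was under the filter of 0.5 RPKM on the mean of the 9 libraries, so Mt3 was tested only through its levels in the other groups and its calls are no support for a rise of the members.

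The log2 change of Mt3 was 0.89 (SE 0.27, limma adjusted p = 0.0465) in ONC/Ctrl and 0.98 (SE 0.27, limma adjusted p = 0.0398) in TPEN/Ctrl, and both calls are at the edge of what 6 to 24 reads can show. In ONC/Ctrl the adjusted p was 0.0643 to 0.152 when Ctrl replicate 1, 2 or 3, ONC replicate 1 or 2 or TPEN replicate 2 was left out. In TPEN/Ctrl it was 0.0569 to 0.128 without Ctrl replicate 1, 2 or 3, ONC replicate 2 or TPEN replicate 2 or 3. The change in TPEN/ONC was 0.094 (SE 0.27, limma adjusted p = 0.886), with a 95% confidence interval from -0.51 to 0.70 on the log2 scale, which holds an increase of 1.5-fold but not a decrease of that size.

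Mtf1, the gene of the zinc sensor, lies on chromosome 4 (124802104 to 124849800) and passed in no comparison. Its level was 5.80, 5.76 and 5.27 RPKM in Ctrl, 5.22, 5.52 and 5.89 RPKM in ONC and 6.05, 5.44 and 5.50 RPKM in TPEN, from 943 to 1204 reads. The 3 groups overlapped fully. The log2 change was -0.019 in ONC/Ctrl (95% confidence interval -0.18 to 0.14, limma adjusted p = 0.893), 0.031 in TPEN/ONC (-0.13 to 0.19, limma adjusted p = 0.854) and 0.012 in TPEN/Ctrl (-0.15 to 0.17, limma adjusted p = 0.942). A 1.5-fold change of Mtf1 RNA in either direction lay outside all 3 intervals, while the activity and location of the protein were not measured here. Part of the last exon of Mtf1 is shared with 1110065P20Rik on the other strand (721 of 8907 bases), which had 39 to 71 reads and did not pass either.

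**Figure D3:**
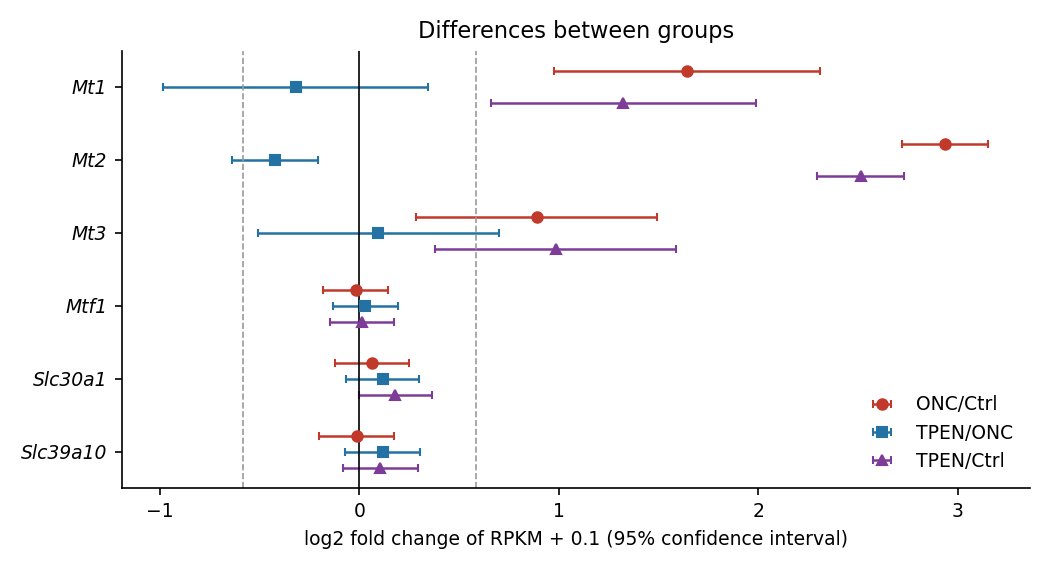
Log2 fold change of RPKM + 0.1 with its 95% confidence interval for the 4 members and for the zinc transporter genes Slc30a1 and Slc39a10 in ONC/Ctrl (circles), TPEN/ONC (squares) and TPEN/Ctrl (triangles). Dashed lines mark a 1.5-fold change; Mt2 is at 2.94 in ONC/Ctrl but at -0.42 in TPEN/ONC, and the intervals of Mtf1, Slc30a1 and Slc39a10 lie inside the dashed lines.

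The order of the genes depended on the length used. By mean RPKM over all libraries, Mt2 ranked 4782, Mtf1 6375, Mt1 8742 and Mt3 13097 of 15228 genes. The table divides Mt1 by 1246 bases, which also cover longer transcripts, whereas the transcript whose coding sequence is printed above has 549 bases. Per kilobase of that spliced transcript, the level was 3.15 ± 1.48 for Mt1, 2.00 ± 0.0847 for Mt2 (511 bases) and 0.705 ± 0.139 for Mt3 (536 bases) in Ctrl, so Mt1 was then above Mt2 in Ctrl by mean, with a difference smaller than the spread of Mt1. In ONC the same levels were 9.59 ± 0.498, 16.1 ± 1.04 and 1.52 ± 0.496, and in TPEN 7.76 ± 1.70, 12.02 ± 1.71 and 1.62 ± 0.472 (SD, n = 3). Mt2 was thus above Mt1 in ONC on both lengths, and Mt3 was lowest of the 3 in every group.

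The ratio of Mt2 to Mt1 within a library does not depend on how libraries were scaled, and it asks whether both genes changed by the same factor. It was 2.54, 0.840 and 1.18 in Ctrl, 3.20, 3.28 and 3.44 in ONC and 2.91, 2.91 and 3.47 in TPEN. All ONC and TPEN libraries were above all Ctrl libraries, and the highest Ctrl value belonged to the library with 20 reads of Mt1. An exact permutation test over 280 arrangements of the group labels gave p = 0.0143 on the log2 ratio, where the smallest possible p was 0.00357, and Benjamini-Hochberg adjustment over the 2 ratios tested gave p = 0.0286. The mean log2 ratio was 1.28 higher in ONC than in Ctrl and 0.098 lower in TPEN than in ONC. Without ONC replicate 1, 2 or 3 or TPEN replicate 1 or 2, the exact p was at most 0.0643 and no longer under 0.05, with the ONC to Ctrl difference at 1.25 to 1.30.
The ratio of Mt3 to Mt1 was 0.320 ± 0.229 in Ctrl, 0.181 ± 0.0620 in ONC and 0.252 ± 0.121 in TPEN (SD, n = 3), with an exact permutation p of 0.568 (adjusted p = 0.568). These groups overlapped, and the ratio rested on 6 to 24 reads of Mt3.

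**Figure D4:**
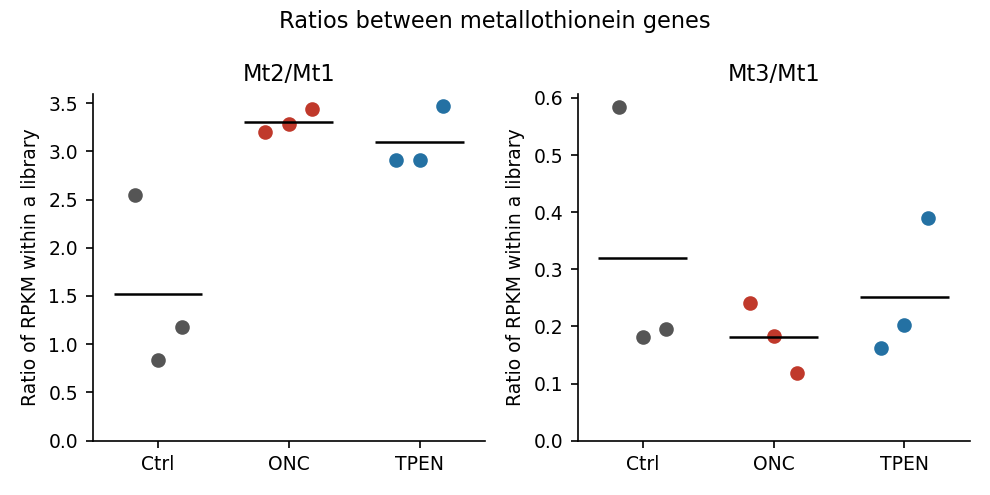
Ratio of the RPKM values of Mt2 to Mt1 (left) and of Mt3 to Mt1 (right) within each library (points), with group means as lines. The Mt2/Mt1 ratio lies between 2.91 and 3.47 in all ONC and TPEN libraries and between 0.840 and 2.54 in Ctrl, while the Mt3/Mt1 groups overlap.

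Other genes known as targets of MTF-1 gave 1 call in ONC/Ctrl, that of Cebpa, which is no support for a rise for the reason given below. The list also holds Slc39a10, which MTF-1 represses, so its counts and medians do not describe activated targets alone. Of 12 such genes chosen for this description, 9 were tested, 1 was higher in ONC/Ctrl, where 11.7% of all genes were, and 0 were lower, with a median log2 change of 0.063 beside 0.017 for all genes tested. At an unadjusted p under 0.05 and with voom on the reads, the count of lower genes was also 0. In TPEN/ONC, 1 was lower (3 at an unadjusted p under 0.05 and 2 with voom), where 4.14% of all genes were lower by limma. The median was -0.059 beside -0.011 for all genes tested, and 0 were higher by limma, at that unadjusted p or with voom. Slc30a1, which encodes the zinc exporter ZnT-1, was at 4.25 ± 0.238, 4.45 ± 0.422 and 4.82 ± 0.196 RPKM in Ctrl, ONC and TPEN, with a log2 change of 0.063 in ONC/Ctrl (limma adjusted p = 0.655) and 0.12 in TPEN/ONC (limma adjusted p = 0.456). It overlaps the listed gene 1700034H15Rik, so its reads are uncertain. Slc39a10, which encodes a zinc importer that MTF-1 represses, had log2 changes of -0.012 (limma adjusted p = 0.940) and 0.12 (limma adjusted p = 0.467) in the same comparisons. The gene that passed was Cebpa, best known as a transcription factor of myeloid cells. Its mean in Ctrl was 0.209 RPKM, under the filter of 0.5 RPKM, so it was tested only through its levels after crush. Its calls against Ctrl are therefore no support for a rise of these targets. Cebpa rose by 2.37 on the log2 scale in ONC/Ctrl (SE 0.15, limma adjusted p = 3.9e-06) and fell by 0.88 in TPEN/ONC (limma adjusted p = 0.00696). In TPEN/Ctrl, Ndrg1, a stress-response gene, was lower by a small amount (-0.13, limma adjusted p = 0.0252) and Cebpa was higher (1.49, limma adjusted p = 0.000141). Without Ctrl replicate 2 or 3 or TPEN replicate 1 or 3, Ndrg1 had an adjusted p between 0.0591 and 0.0848.

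Genes of the other signals known to induce metallothioneins differed between lists. The lists were chosen with earlier results of these data known, so their counts describe the listed genes only. Which signal acted on the metallothionein genes was not tested. Over all genes tested, 6.97% were lower in ONC/Ctrl, 3.24% higher in TPEN/ONC and 5.01% lower in TPEN/Ctrl at an adjusted p under 0.05. Of 14 tested genes of gp130 and STAT3 signalling, 12 were higher in ONC/Ctrl and 0 lower, with a median log2 change of 1.94. The count of lower genes was also 0 at an unadjusted p under 0.05 and with voom. Among the 12, Bcl3, Serpina3n, Osmr and Pim1 averaged 0.0548, 0.135, 0.145 and 0.449 RPKM in Ctrl, under the filter of 0.5 RPKM. They were tested only through their levels after crush, so their calls are no support for a rise of the list. In TPEN/ONC, 4 genes were lower, with a median of -0.26 beside -0.011 for all genes. Of these 4, Bcl3 averaged 0.331 RPKM in TPEN, also under that filter, so its fall is no support either. The increases were led by Edn2, the gene of endothelin 2 (3.26, limma adjusted p = 6.0e-08), Bcl3, a cofactor of NF-κB (3.05, limma adjusted p = 2.2e-06), Gfap, the intermediate filament of reactive glia (2.95, limma adjusted p = 1.6e-09), and the acute phase gene Serpina3n (2.69, limma adjusted p = 2.5e-05). In TPEN/ONC, Bcl3 fell by 1.57, Edn2 by 1.15, Gfap by 0.62 and Fgf2 by 0.58 on the log2 scale.
Of 10 tested targets of NRF2, the factor of the oxidative stress response, 5 were higher in ONC than in Ctrl, and 4 were lower with TPEN than without it. Hmox1, which encodes heme oxygenase 1, rose by 2.99 on the log2 scale in ONC/Ctrl and fell by 2.40 in TPEN/ONC (limma adjusted p = 3.6e-07), so it was far lower in TPEN than in ONC while Mt2 fell by 0.42. Ftl1, of ferritin, rose by 1.005 and fell by 0.62, whereas Srxn1, of sulfiredoxin, rose by 0.88 and had a change of 0.0082 in TPEN/ONC (limma adjusted p = 0.974).

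Of 10 tested glucocorticoid targets, 1 was higher and 2 were lower in ONC/Ctrl, with a median log2 change of 0.041. Fkbp5, a regulator of the glucocorticoid receptor, rose by 0.39 (limma adjusted p = 0.00635), Glul, which encodes the glutamine synthetase of Müller glia, fell by 0.57 (limma adjusted p = 9.7e-07), and Nr3c1, of the receptor itself, fell by 0.15 (limma adjusted p = 0.0378). The call of Nr3c1 was lost when any Ctrl or ONC library was left out, with adjusted p values from 0.0609 to 0.122. In TPEN/ONC, Tsc22d3 fell by 0.40 (limma adjusted p = 0.0205) and Glul by 0.18 (limma adjusted p = 0.00622), and the call of Tsc22d3 was lost without ONC replicate 1 or 3 or TPEN replicate 2 or 3 (adjusted p values from 0.0511 to 0.0790).
Of 12 tested genes of copper handling, the other metal that metallothioneins bind, only Cp was higher in ONC/Ctrl (0.42, limma adjusted p = 0.00130) and 0 were lower, with 1 lower at an unadjusted p under 0.05 and 1 with voom on the reads. Cp encodes ceruloplasmin, the copper ferroxidase. In TPEN/ONC, 0 genes of that list passed by limma, 0 had an unadjusted p under 0.05 and 0 passed with voom on the reads. In TPEN/Ctrl, Cp (0.37) and Sod1 (0.23), the copper and zinc superoxide dismutase, were higher. Of the genes named from these lists, Fgf2, Ftl1, Glul, Cp and Ndrg1 overlap other listed genes, and their reads are uncertain.

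**Figure D5:**
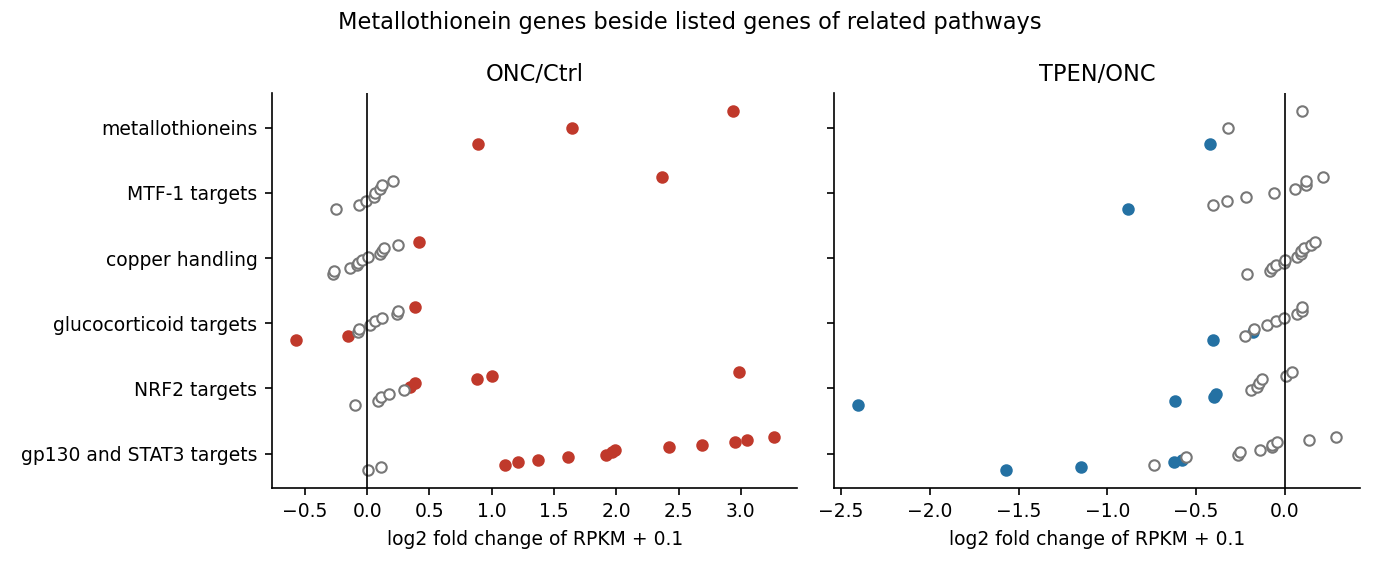
Log2 fold change of RPKM + 0.1 in ONC/Ctrl (left) and TPEN/ONC (right) for Mt1, Mt2 and Mt3 and for each tested gene of 5 lists (points); filled points have a limma adjusted p under 0.05. In ONC/Ctrl 12 of 14 genes of gp130 and STAT3 signalling are filled on the right of 0, beside 1 of 9 other MTF-1 targets. The lists were chosen with earlier results of these data known, so these counts do not test one signal against another. Of the filled genes, Mt3, Bcl3, Serpina3n, Osmr, Pim1 and the MTF-1 target Cebpa were tested only through their levels after crush.

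The profiles nearest to that of each member over the 9 libraries were sought by the root mean square difference of centred log2(RPKM + 0.1) values, among the 12142 genes that averaged 1 RPKM or more (12143 for Mt3). For Mt2, after the antisense gene (0.11), these were Gfap (0.13), Nes, of the intermediate filament nestin (0.14), Tnnt2, of cardiac troponin T (0.23), and Gadd45b, a stress-induced gene (0.23). Gfap was at 2.79, 22.2 and 14.4 RPKM and Nes at 2.41, 18.5 and 15.5 RPKM in Ctrl, ONC and TPEN on average, close to the factor by which Mt2 differed. For Mt1 the nearest were Gm43802, Gm43439, 2810032G03Rik, Gm31748 and Tubb2b, of a beta tubulin, at 0.28 to 0.33, of which Gm43802, Gm43439 and Gm31748 overlap other listed genes. For Mt3 they were Gm17089, Rhob, Scara3, Capn2 and Srxn1 at 0.24 to 0.27, and for Mtf1 Vps41, 1700051O22Rik, Rpl15, Krr1 and Adat2 at 0.030 to 0.042. These likenesses are descriptions over the same 9 libraries.

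Genes next to the metallothionein genes differed less than Mt2 in ONC/Ctrl. In TPEN/ONC they also differed less, but Nup93 came close, at -0.40 (limma adjusted p = 0.0810) beside -0.42 for Mt2. Within 250 kb, 6 other genes described here were Gnao1, Nudt21, Ogfod1, Bbs2, Nup93 and Herpud1, with log2 changes of -0.15 to 0.32 in ONC/Ctrl and of -0.40 to 0.17 in TPEN/ONC. By limma, 0 of the 6 passed in ONC/Ctrl (4 at an unadjusted p under 0.05, 2 with voom on the reads) and 0 in TPEN/ONC (3 and 2). Bbs2 was lower in TPEN/Ctrl (-0.15, limma adjusted p = 0.00555). Within 100 kb of Mtf1, besides the gene that overlaps it, 8 genes were listed: Sf3a3 was higher (0.14, limma adjusted p = 0.0170) and Maneal lower (-0.24, limma adjusted p = 0.00598) in ONC/Ctrl, Epha10 was higher in TPEN/ONC (0.72, limma adjusted p = 0.0187), and Maneal was lower in TPEN/Ctrl (-0.23, limma adjusted p = 0.0110). Sf3a3 was no longer called without ONC replicate 3 (adjusted p = 0.0587), nor Epha10 without ONC replicate 2 or 3 or TPEN replicate 1 or 3 (adjusted p values from 0.0579 to 0.0703).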

How the data were processed

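RNA was extracted from sorted cells, and libraries were made with a stranded mRNA kit that carries molecular identifiers. Trimmomatic 0.36 appears in the submitters' processing notes. The authors aligned the reads with STAR to the mouse genome (GRCm38/mm10) and deposited 1 table of RPKM values with an exon length per gene, whose own fold changes, p-values and FDR values were not used. The counting program, the annotation, the use of strand and whether molecular identifiers were collapsed are not given in the sources used here. Each RPKM value, multiplied by length, gave a whole number of reads within a tolerance of 0.01 for 100% of values, which yielded reads and library totals. A count of 0 allows up to 3 reads, and that limit and all Poisson intervals cover counting error only.

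Libraries were grouped by their labels. limma 3.58.1 (R 4.3.3), with its trend option, was fitted to log2(RPKM + 0.1) for 13566 genes that averaged 0.5 RPKM or more over the 9 libraries, with Benjamini-Hochberg adjustment over all of them. The constant makes fold changes of low genes smaller than the ratios of their means. Ratios were tested by exact permutation of the group labels, two-sided for a variance ratio. The fits were tested on simulated data. Named genes were the 4 members, up to 4 genes per list with the largest changes among those that passed, Slc30a1 and Slc39a10, the 5 nearest profiles per member, and listed neighbours, of which 1 is not reported here. The members and lists were chosen with earlier results of these data known. Other scalings, filters, pseudocounts and tests, a block for the replicate number and leaving out each library were tried as alternatives.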

Additional observations from a re-analysis of the deposited data

How the results depend on the processing

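The increases of Mt2 and Mt1 in ONC/Ctrl and of Mt2 in TPEN/Ctrl passed under every alternative except that Mt1 did not pass a test against a fold change of 1.5, where its log2 change of 1.64 had an adjusted p of 0.118. In TPEN/Ctrl, that test also left out Mt1 (1.32, adjusted p = 0.802), and the change of Mt1 was 0.94 to 1.63 when single libraries were left out. The decrease of Mt2 in TPEN/ONC (-0.42) did not pass with only the 6 libraries compared (adjusted p = 0.0523) or against a fold change of 1.5, and it was -0.53 to -0.34 without single libraries. Mt3 in ONC/Ctrl did not pass after quantile normalization (0.60), with a pseudocount of 1 RPKM (0.37), with voom on the reads (1.01), or, at 0.89, with only the 6 libraries compared or against a fold change of 1.5, and it ranged from 0.71 to 1.14 without single libraries. Mt3 in TPEN/Ctrl did not pass after quantile normalization (0.70), with a pseudocount of 1 RPKM (0.41), with voom (1.12) or, at 0.98, against a fold change of 1.5, and its lowest and highest values without single libraries were 0.81 and 1.199. With a mean of at least 1 RPKM required, Mt3 was not tested. Values near 0 changed sign: without single libraries Mt3 in TPEN/ONC ran from -0.16 to 0.31, and Mtf1 from -0.062 to 0.023 in ONC/Ctrl, from -0.017 to 0.075 in TPEN/ONC and from -0.035 to 0.040 in TPEN/Ctrl, where median-of-ratios scaling gave -0.00056. The log2 difference of the Mt2 to Mt1 ratio between ONC and Ctrl was 0.93 to 1.73 without single libraries. The cause of these changes was not tested.

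Libraries with the same replicate number did not deviate together (correlations of -0.062 to 0.027 over 9 pairs, 0 over 0.1), so the numbers were not taken to pair them. With the replicate block, Mt3 did not pass in ONC/Ctrl (0.89, adjusted p = 0.0816) or TPEN/Ctrl (0.98, adjusted p = 0.0755), the Mt2 to Mt1 ratio (1.28) had an exact p of 0.0556, and no other call of a member changed, while Nr3c1 in ONC/Ctrl was no longer called (adjusted p = 0.0636). The 724 genes that passed with at least a 1.5-fold change in ONC/Ctrl became 457 with a pseudocount of 1 RPKM and 297 in the test against that fold. The 275 of TPEN/ONC became 432 with no filter, 151 and 47, and the 530 of TPEN/Ctrl became 281 and 159. Of the values of other named genes, 29 of 684 lost and 1 gained a call when single libraries were left out, and 47 of 675 lost and 1 gained one under the other alternatives. The uncalled changes of Slc30a1 and Slc39a10 in ONC/Ctrl ran from -0.0016 to 0.13 and from -0.078 to 0.037 without single libraries. With voom on the reads, 788, 370 and 619 genes passed. Mt3 had at most 24 reads per library, and Mt1 and Mt2 had at most 58 in Ctrl.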
